A study of Mus musculus with 6 samples.

Results

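The Hedgehog genes described here are 9 members of the pathway, namely the ligand genes Shh and Ihh, the receptor and co-receptor genes Ptch1, Smo, Hhip and Boc, and the transcription factor genes Gli1, Gli2 and Gli3. They were chosen by name, with earlier results of these data known. Each was found through the probe sets that the platform annotation assigns to exactly 1 of them, 22 of the 34945 probe sets with 1 gene. The 9 genes are 9 of 18193 genes so named. RNA came from tissue labelled as retinal pigment epithelium (RPE), a pigmented cell sheet that backs the neural retina, of mouse embryos at embryonic day 13.5. The series sets 3 arrays of albino embryos against 3 arrays of pigmented control embryos, each array holding a separate biological pool of tissue from 3 to 4 littermates. Neither the strain nor the mutated gene is named in the labels, and no agent was given to either genotype. In each gene the probe set with the highest mean over the 6 arrays stands for the gene, and all values are log2 RMA values, so a difference of 1 is a doubling.

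Hedgehog ligands are secreted proteins that bind Patched (Ptch1), which otherwise holds the membrane protein Smoothened (Smo) inactive. Active Smoothened lets the GLI factors act as activators, and Gli1, Ptch1 and Hhip are themselves transcribed in response, which makes their transcripts the usual readout of the pathway. In the mouse eye, Shh is made by retinal ganglion cells and Ihh by cells of the choroid next to the RPE, and the periocular mesenchyme and the retina are known to respond.

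Ptch1, Hhip and Gli1 all stood lower in albino pools, and the ligand gene Ihh, read at a low level, stood lower as well. Boc, a co-receptor gene, stood higher. Shh was dim, and Gli2 and Gli3, which need no Hedgehog signal to be transcribed, differed little. None of these differences passed the test across all probe sets. In the same albino pools, a list of skeletal muscle markers stood 1.46 higher, and 0 of its 12 genes passed that test.

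The bases before the start of transcription are shown for Ptch1, Hhip and Ihh, 3 of the genes that lay lower in albino pools and whose start is in the RefSeq promoter table (GRCm38.p6). Each run holds the 250 bases before the listed start, 5′ to 3′ on the gene's own strand, with every CpG in capitals. Ptch1 lies at chr13:63565736-63565985 on the minus strand, Hhip at chr8:80058009-80058258 on the minus strand and Ihh at chr1:74951673-74951922 on the minus strand.
Ptch1: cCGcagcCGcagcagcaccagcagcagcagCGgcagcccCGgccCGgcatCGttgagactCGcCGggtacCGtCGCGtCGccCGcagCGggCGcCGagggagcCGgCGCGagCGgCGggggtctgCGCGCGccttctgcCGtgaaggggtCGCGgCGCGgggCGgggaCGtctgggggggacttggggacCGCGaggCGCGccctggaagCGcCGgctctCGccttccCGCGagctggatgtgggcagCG
Hhip: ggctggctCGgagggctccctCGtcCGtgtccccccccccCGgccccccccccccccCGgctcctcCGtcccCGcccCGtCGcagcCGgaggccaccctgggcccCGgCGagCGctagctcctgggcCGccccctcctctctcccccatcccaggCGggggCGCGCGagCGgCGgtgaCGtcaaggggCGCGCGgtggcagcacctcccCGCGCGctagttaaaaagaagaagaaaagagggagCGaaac
Ihh: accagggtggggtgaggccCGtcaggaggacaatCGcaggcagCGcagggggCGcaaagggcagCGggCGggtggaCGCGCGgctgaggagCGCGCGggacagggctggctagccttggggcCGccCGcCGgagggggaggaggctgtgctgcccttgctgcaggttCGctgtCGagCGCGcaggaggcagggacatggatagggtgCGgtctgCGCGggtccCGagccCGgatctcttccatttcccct
All 3 windows are rich in CpG, with 41 CpG in Ptch1, 28 in Hhip and 24 in Ihh, against a median of 6 over 32851 promoter windows of the same length. Members whose level differed little had comparable windows, with 22 CpG in Gli2 and 34 in Gli3. The consensus 9-base GLI motif GACCACCCA, searched on both strands, was in 0 of the 6 members' windows that the table holds (also Smo), and in 0.225% of all windows. The absence concerns these letters in these windows alone.

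Markers of other tissues were read on every array, and the arrays fell into clusters. List means of RPE markers lay between 10.37 and 10.78, those of periocular mesenchyme markers between 10.54 and 10.71 and those of skeletal muscle markers between 7.09 and 9.18. The pools are therefore not taken as RPE alone, and in such bulk tissue fewer cells of a type and less RNA per cell cannot be told apart. On the first principal component, which took 68.9% of the variance, the replicate 1 array of each genotype lay apart from the remaining 4 arrays. Of 23591 probe sets tested with limma, 0 had an adjusted p under 0.05 (0%), and 1104 had an unadjusted p under 0.05 (4.68%). Of these, 68.8% were higher in albino pools, against 31.5% after median centring and 51% after cyclic loess. Blocking on the replicate number gave 4243 at an unadjusted p under 0.05 and 0 after adjustment.

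Of the 9 genes, 7 had a mean of at least 5 and were tested, with 14 of their probe sets. Nearest to the minimum of 5 among all 22 probe sets were a Ptch1 probe set at 4.65 below it and a Hhip probe set at 5.62 above it. Their highest-mean probe sets gave 0 at an adjusted p under 0.05 and 4 at an unadjusted p under 0.05, of which 3 (Ptch1, Hhip and Gli1) were lower and 1 (Boc) higher in albino pools. Over all 12098 genes tested, an unadjusted p under 0.05 was reached by 1.31% on the lower side and 3.47% on the higher side. The count of 4 was 1 without albino replicate 2, 1 without albino replicate 3, 1 without pigmented replicate 2, 2 without pigmented replicate 1 and 2 without both replicate 3 arrays. With the replicate block it was 5, Smo being added, where 16.9% of all genes reached it. Boc, at an unadjusted p of 0.0497, was no longer under 0.05 after median centring (p of 0.143) or cyclic loess (p of 0.176), while Ptch1, Hhip and Gli1 stayed under it. After median centring Smo (p of 0.029) took the place of Boc in the count of 4, and after cyclic loess the count was 3.

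**Figure D1:**
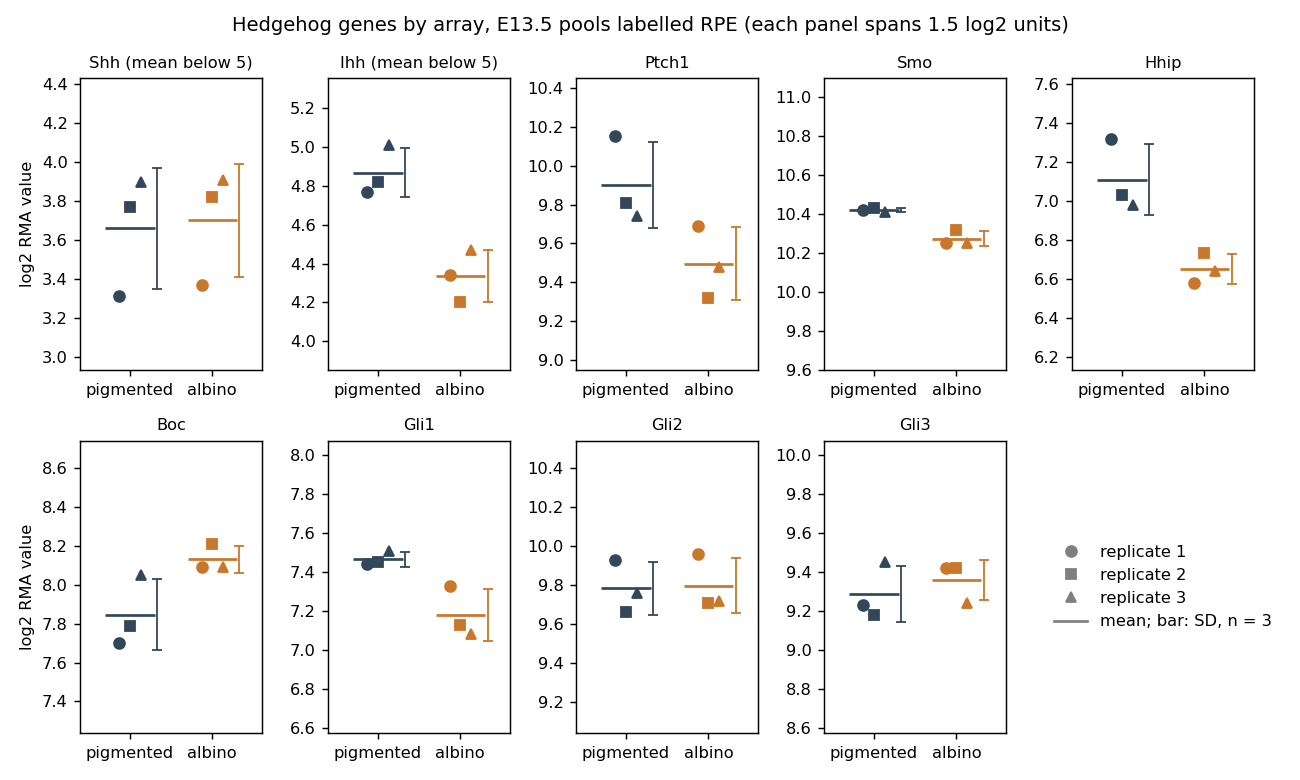
Log2 RMA value of each Hedgehog gene's highest-mean probe set on the 3 pigmented and 3 albino arrays (points shaped by replicate number, line for the mean, bar for the SD). The albino points of Ptch1, Hhip, Gli1, Smo and Ihh lie below all pigmented points, those of Boc lie above, and those of Shh, Gli2 and Gli3 overlap.

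Among the ligands, Ihh read 4.34, 4.2 and 4.47 in albino pools and 4.77, 4.82 and 5.01 in pigmented ones. Every pigmented array was above every albino array, with a gap of 0.30 between the nearest arrays of the genotypes. Albino pools had a mean of 4.34 ± 0.14 and pigmented pools one of 4.87 ± 0.13 (SD, n = 3 for both), so the difference was -0.53 on the log2 scale or 1.44-fold. The mean of 4.60 over the 6 arrays was below the minimum of 5, so Ihh was not tested with the other members. When no filter was applied, limma gave the difference an unadjusted p = 0.0039 and an adjusted p of 0.9998, as 45037 probe sets then entered the adjustment. Of these, 1517 had an unadjusted limma p under 0.05, 685 of them on the lower side. The shares of genes without overlap given further on cover the tested genes, and so not Ihh. Ihh has 1 probe set on this array.

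Shh, the best known ligand of the family, was dimmer still. Its highest-mean probe set read 3.37, 3.82 and 3.91 in albino pools and 3.31, 3.77 and 3.90 in pigmented ones. The genotypes overlapped, the arrays numbered 1 were the lowest of both, and the difference was 0.04. The other Shh probe set had a mean of 3.11 and a difference of -0.13. The list of retinal ganglion cell markers, a cell type that makes Shh in the mouse retina, had 6 of 10 members above the minimum. Its list means were 7.64 ± 0.05 for albino pools and 7.62 ± 0.32 for pigmented pools (SD, n = 3 for both). Single genes went both ways, 3 lower and 3 higher, from -0.50 to 0.60, and 3 others were below the minimum. The close means therefore do not show that this cell type was alike in both genotypes. Dhh, another mammalian ligand gene and no member of the set, also lay below the minimum, with a mean of 4.66 and a difference of -0.18.

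Ptch1, the Hedgehog receptor that is also a transcriptional target, read 9.69, 9.32 and 9.48 in albino pools and 10.15, 9.81 and 9.74 in pigmented ones. The genotypes did not overlap, though the highest albino array lay only 0.05 under the lowest pigmented one, and in both genotypes replicate 1 was the highest. The means were 9.50 ± 0.19 and 9.90 ± 0.22 (SD, n = 3 each). The difference was -0.40 (1.32-fold, SE 0.15, 95% confidence interval -0.77 to -0.04), with an unadjusted p of 0.034 and a limma adjusted p of 0.999. Between arrays of the same number Ptch1 differed by -0.46, -0.49 and -0.26. The 2 other Ptch1 probe sets were below the minimum, with means of 4.55 and 4.65. They gave -0.53 and -0.08, the first without overlap and the second with overlap.

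Hhip encodes a membrane protein that binds Hedgehog ligands and removes them from signalling. It read 6.58, 6.73 and 6.64 in albino pools and 7.32, 7.03 and 6.98 in pigmented ones. All albino arrays lay below all pigmented arrays, with a gap of 0.25, and pigmented replicate 1 stood highest. The means were 6.65 ± 0.08 and 7.11 ± 0.18 (SD, n = 3 for both), which differ by -0.46 (1.38-fold, SE 0.12, 95% confidence interval -0.75 to -0.17). The limma p was 0.0071 before adjustment and 0.767 after it. Same-numbered arrays differed by -0.74, -0.30 and -0.34.

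Hhip is the member with most probe sets, and all 4 were tested and lay lower in albino pools. The second without overlap read 5.43, 5.46 and 5.62 in albino pools, against 5.93, 5.89 and 5.95, a difference of -0.42 (SE 0.09, limma adjusted p = 0.644). The remaining 2 overlapped between genotypes and gave -0.27 (SE 0.16) and -0.10 (SE 0.15). Probe sets of 1 gene share its RNA and are not replicates of the comparison.

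Gli1, the GLI factor that acts as an activator and is made when the pathway is on, read 7.33, 7.13 and 7.08 in albino pools and 7.44, 7.45 and 7.51 in pigmented ones. The pigmented arrays lay close together and all above the albino arrays, with a gap of 0.11. Its means were 7.18 ± 0.13 and 7.47 ± 0.04 (SD, n = 3 each). The difference was -0.29 (1.22-fold, SE 0.10, 95% confidence interval -0.53 to -0.05, unadjusted p of 0.026 and limma adjusted p of 0.987). Same-numbered arrays differed by -0.11, -0.32 and -0.43. Gli1 has 1 probe set.

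**Figure D2:**
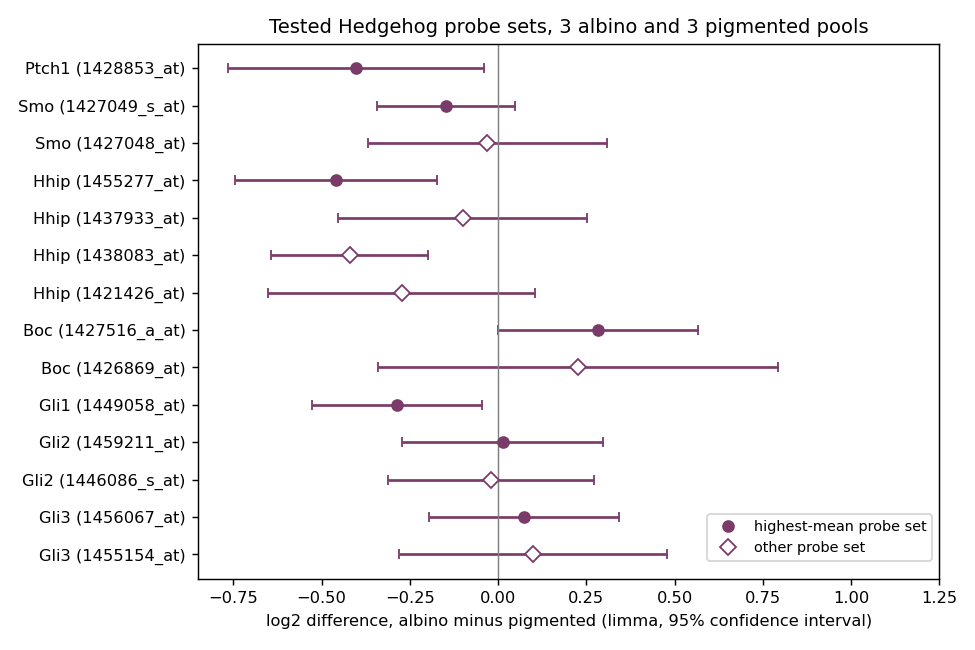
Log2 difference, albino minus pigmented, with its 95% confidence interval from limma, for the 14 Hedgehog probe sets with a mean of at least 5. The 4 Hhip probe sets, Ptch1 and Gli1 lie left of 0, both Boc probe sets lie right of 0, and the Gli2 and Gli3 probe sets lie near 0.

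Ptch1, Hhip and Gli1 thus each had every albino array below every pigmented array, as 3.38% of all genes tested did. The same side in all 3 pairs of same-numbered arrays follows from this and adds no support. The two-sided exact permutation p over the 6 arrays follows from it too. For each gene alone it was 0.1, below which 3 against 3 cannot go. Within a genotype the 3 genes did not all run in parallel. In pigmented pools Ptch1 and Hhip ran alike, highest in replicate 1 and lowest in replicate 3. Gli1 was lowest in replicate 1 there, but its pigmented values spanned only 7.44 to 7.51. Among albino pools Ptch1 was lowest in replicate 2, Gli1 in replicate 3 and Hhip in replicate 1. The size order of the same-numbered differences also differed, with the largest in replicate 2 for Ptch1, in replicate 1 for Hhip and in replicate 3 for Gli1. No correlation across the 6 arrays is given, because replicate 1 stands apart from the other arrays and each cluster is too small.

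A related measure is the root mean square difference between 2 genes' deviations from their own means over the 6 arrays. It includes the genotype difference, so it does not describe parallel runs within a genotype. It was 0.15 between Ptch1 and Hhip, 0.17 between Ptch1 and Gli1 and 0.19 between Hhip and Gli1. The value against Boc, whose genotype difference has the opposite sign, was larger for each, at 0.43 for Ptch1, 0.42 for Hhip and 0.31 for Gli1. Smo lay nearer to Gli1 (0.11) than Ptch1 or Hhip did, and Gli2 (0.17) lay nearer to it than Hhip did, so closeness to Gli1 was not particular to the other target genes. Of 12091 other genes, those nearest to Ptch1 by this measure were Jcad (0.043), Hrct1 (0.048) and Mylk (0.056), where Mylk encodes a myosin light chain kinase. Nearest to Gli1 were Cntnap2 (0.020), Aldh4a1 (0.031) and the T-box factor gene Tbx2 (0.054). Nearest to Hhip were 2310061N02Rik (0.070), Scp2 (0.072) and Art3 (0.074). Of the 12091 genes, 380 lay nearer to Ptch1 than Hhip did and 575 nearer than Gli1 did, and 165 lay nearer to Hhip than Ptch1 did and 440 nearer than Gli1 did. For Gli1 the numbers were larger, with 1932 genes nearer than Ptch1 and 3344 (27.7%) nearer than Hhip.

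Smo, the signal transducer that Patched restrains, read 10.25, 10.32 and 10.25 in albino pools and 10.42, 10.43 and 10.41 in pigmented ones. The arrays of each genotype lay close together without overlap, 0.09 apart at the nearest. The difference was -0.15 (1.11-fold, SE 0.08, 95% confidence interval -0.34 to 0.05, limma adjusted p = 0.999). Under the replicate block the unadjusted p of 0.118 became 0.045, and the adjusted p 0.268. The second tested Smo probe set overlapped between genotypes and gave -0.03, and the dim one, with a mean of 3.16, gave -0.01. The Smo value thus depends on which probe set is read, and the highest one ends in _s_at, a suffix for probes that can match several transcripts.

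Boc, a co-receptor gene whose protein binds Hedgehog ligands together with Patched, ran the other way. It read 8.09, 8.21 and 8.09 in albino pools and 7.70, 7.79 and 8.05 in pigmented ones. All albino arrays were above all pigmented arrays, but pigmented replicate 3 came within 0.04 of them. The means were 8.13 ± 0.07 and 7.85 ± 0.18 (SD, n = 3 each) and the difference 0.28 (1.22-fold, SE 0.12, limma adjusted p = 0.999). On the higher side, 7.97% of all genes tested were free of overlap. The second tested probe set overlapped and gave 0.23 (SE 0.24). The dim one, at a mean of 2.50, also overlapped and gave -0.06, the opposite sign. Boc, Cdon and Gas1 are known in mouse embryos as co-receptor genes that Hedgehog signalling lowers. Whether signalling bears on their values here was not tested. Cdon differed by 0.19 (SE 0.13) and Gas1 by 0.06 (SE 0.08), and their other probe sets gave -0.02 for Cdon and -0.09 to 0.16 for Gas1.

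Gli2 and Gli3 encode the GLI factors that are present before a signal arrives, Gli2 mainly as an activator and Gli3 mainly as a repressor. Gli2 read 9.96, 9.71 and 9.72 in albino pools and 9.93, 9.66 and 9.76 in pigmented ones. Replicate 1 was the highest in both genotypes, and the genotypes overlapped throughout. The difference was 0.01 with a 95% confidence interval of -0.27 to 0.30, and the other probe set gave -0.02. The sign of the Gli2 difference turned after median centring (-0.060) and cyclic loess (-0.010).

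Gli3 read 9.42, 9.42 and 9.24 in albino pools and 9.23, 9.18 and 9.45 in pigmented ones. The highest pigmented array was above all albino arrays, so the genotypes overlapped. The difference was 0.07 with a 95% confidence interval of -0.20 to 0.34. Its second tested probe set gave 0.10, and the dim one, at a mean of 4.24, gave 0.12. With array weights the Gli3 value was -0.0021.

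Other genes of the pathway, taken from a list of 41, showed no common direction apart from that of all genes. 37 of them had a probe set, 33 were tested, and 23 were higher and 10 lower in albino pools. The median difference was 0.053, against 0.043 over all genes tested, of which 35.2% were lower in albino pools. By limma, 0 of 33 passed the adjusted threshold and 0 reached an unadjusted p under 0.05, or 3 with the replicate block. After median centring 21 of 33 were lower, with a median of -0.020.

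Among the genes of ligand release and transport, Scube2, which encodes a secreted protein that frees lipid-bearing ligand from cells, differed by -0.40 (SE 0.17). It read 6.90, 6.62 and 6.84 in albino pools and 7.49, 7.19 and 6.88 in pigmented ones, and pigmented replicate 3 lay inside the albino range. The glypican genes Gpc3 and Gpc4, for heparan sulfate proteoglycans of the cell surface, differed by 0.23 (SE 0.12) and 0.23 (SE 0.14). In the reception list the members with the smallest p after Cdon were Evc2, for a ciliary Smoothened partner (0.11, SE 0.11), and Mgrn1, a ubiquitin ligase gene (0.12, SE 0.13).

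Transduction genes differed least. Sufu, for the protein that holds GLI factors in the cytoplasm, differed by -0.0067 (SE 0.10). Those with the smallest p were Kif3a, for a motor of ciliary transport (0.10, SE 0.08), Gsk3b, for a kinase that marks GLI proteins for processing (-0.12, SE 0.10), and Stk36 (0.14, SE 0.13). All 5 other Gsk3b probe sets had the opposite sign. The 16 tested transduction genes ranged from -0.12 to 0.14, a narrower range than the tested members (-0.46 to 0.28).

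**Figure D3:**
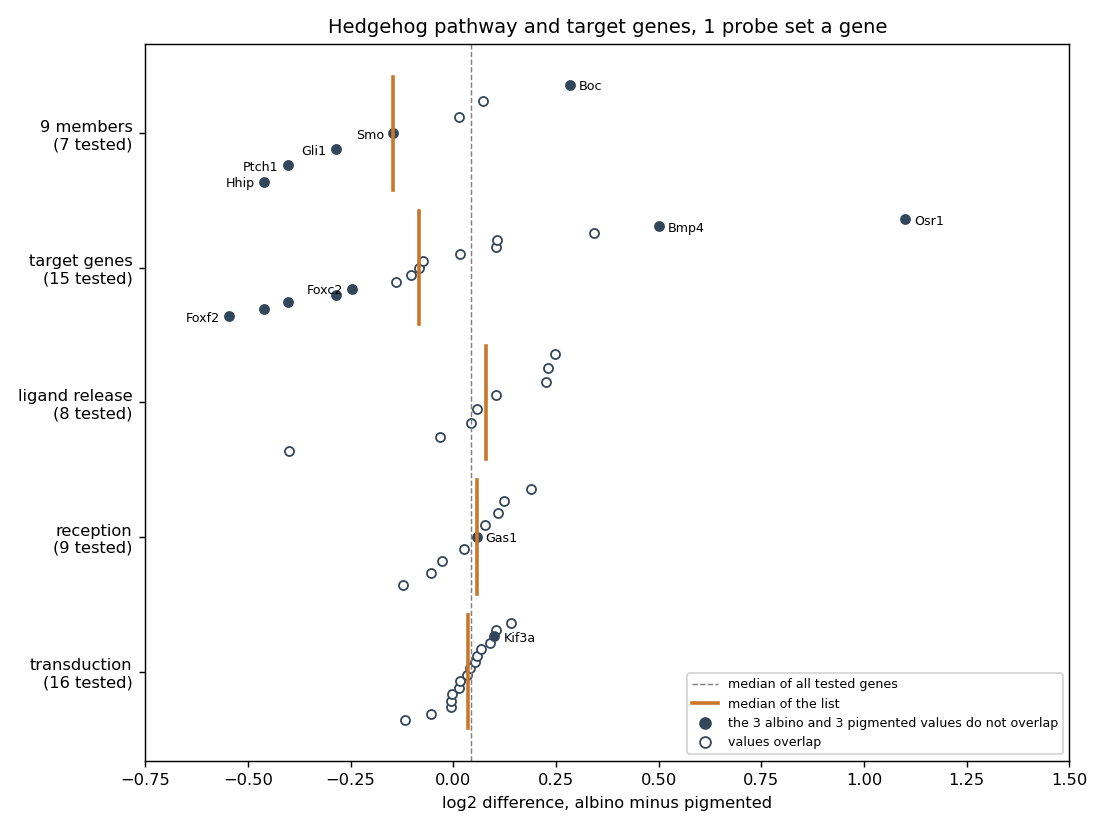
Log2 difference, albino minus pigmented, of the tested members, Hedgehog target genes and other pathway genes, with 1 point a gene (filled where genotypes do not overlap), the list's median in orange and the median of all tested genes dashed. The members and target genes spread to both sides, and the 3 other pathway lists lie near the dashed line at 0.043.

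Genes that respond to Hedgehog signalling in 1 tissue or another, a list of 20 with Ptch1, Gli1 and Hhip among them, did not lie on 1 side. Of the 15 tested, 9 were lower and 6 higher in albino pools, with a median of -0.083. Without the 3 members, 6 were lower and 6 higher, with a median of -0.028. None passed the adjusted threshold in limma, and 4 lower and 2 higher genes had an unadjusted p under 0.05, where 1.31% and 3.47% of all genes did. Of the 4 lower genes 3 were the members Ptch1, Gli1 and Hhip, and without the members 1 of 12 was lower and 2 were higher at that p. Foxf2, a forkhead factor gene of mesenchyme, was the lowest, at 6.30, 6.51 and 6.63 in albino pools against 7.0, 7.1 and 6.98 in pigmented ones. The genotypes did not overlap, and the difference was -0.55 (SE 0.11, limma adjusted p = 0.581), while its other probe set gave -0.08.

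Bmp4 and Osr1 were higher in albino pools. Bmp4, a secreted signal gene, read 8.52, 8.30 and 8.30 in albino pools against 7.97, 7.81 and 7.84 in pigmented ones, a difference of 0.50 (SE 0.10, limma adjusted p = 0.595). Osr1, a zinc finger factor gene of mesenchyme, read 7.75, 8.32 and 8.29 in albino pools against 6.43, 7.24 and 7.39 in pigmented ones, a difference of 1.1 (SE 0.28, limma adjusted p = 0.763). Both genes were free of overlap, as 7.97% of all genes tested were on the higher side. They and Foxf2 were named for the smallest p of the list, so their lack of overlap adds no support. Foxc2, a forkhead factor gene of periocular mesenchyme named here after its values were seen, was also free of overlap, on the lower side (-0.25, SE 0.10). On that side 3.38% of all genes tested were free of overlap.

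Marker lists of other cell types differed between genotypes to different degrees, and not all on the side of Ptch1, Hhip and Gli1. Skeletal muscle markers differed by 1.46, with all 12 members higher in albino pools, and by 1.79, 2.10 and 0.50 between same-numbered arrays. In replicate 3, where the muscle difference was smallest, Ptch1 (-0.26) and Boc (0.04) had their smallest differences, while Gli1 had its largest (-0.43). Hhip had its smallest difference (-0.30) in replicate 2, where muscle differed most, and -0.34 in replicate 3. Leaving out both replicate 3 arrays gave -0.48 for Ptch1, -0.52 for Hhip and -0.22 for Gli1.

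Markers of cells that respond to or send Hedgehog signals differed less than muscle. Retinal progenitor markers were lower in albino pools in 7 of 7 tested members, at 6.61 ± 0.39 against 6.94 ± 0.31 on average, and RPE markers in 11 of 11, at 10.46 ± 0.08 against 10.65 ± 0.13 (SD over 3 arrays). Between same-numbered arrays the retinal progenitor mean differed by -0.41, -0.36 and -0.24 and the RPE mean by -0.26, -0.28 and -0.05. Of all genes tested, 35.2% lay on the lower side by any amount. An unadjusted p under 0.05 was reached by 0 of the 7 progenitor genes in the main fit and by 6 under the replicate block. That block gave 16.9% over all genes tested. It gave 4 of 11 RPE, 4 of 11 periocular mesenchyme, 4 of 9 chondrocyte and 12 of 12 muscle genes. The endothelial, surface ectoderm and ganglion cell lists had 1 of 10, 3 of 10 and 2 of 6. Periocular mesenchyme markers differed by -0.05, with 7 of 11 lower and single genes from -0.25 to 0.23. Endothelial markers differed by -0.0093 and 5 of 10 were lower. Chondrocyte markers, a cell type that makes Ihh in cartilage, differed by -0.08, with 6 of 9 lower and single genes from -0.53 to 0.28. Of the 9, 3 were lower and 0 higher without overlap, where 3.38% and 7.97% of all genes were. Surface ectoderm markers differed by 0.15, and 8 of 10 were higher. The part of these cell types in the Hedgehog differences was not tested.

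**Figure D4:**
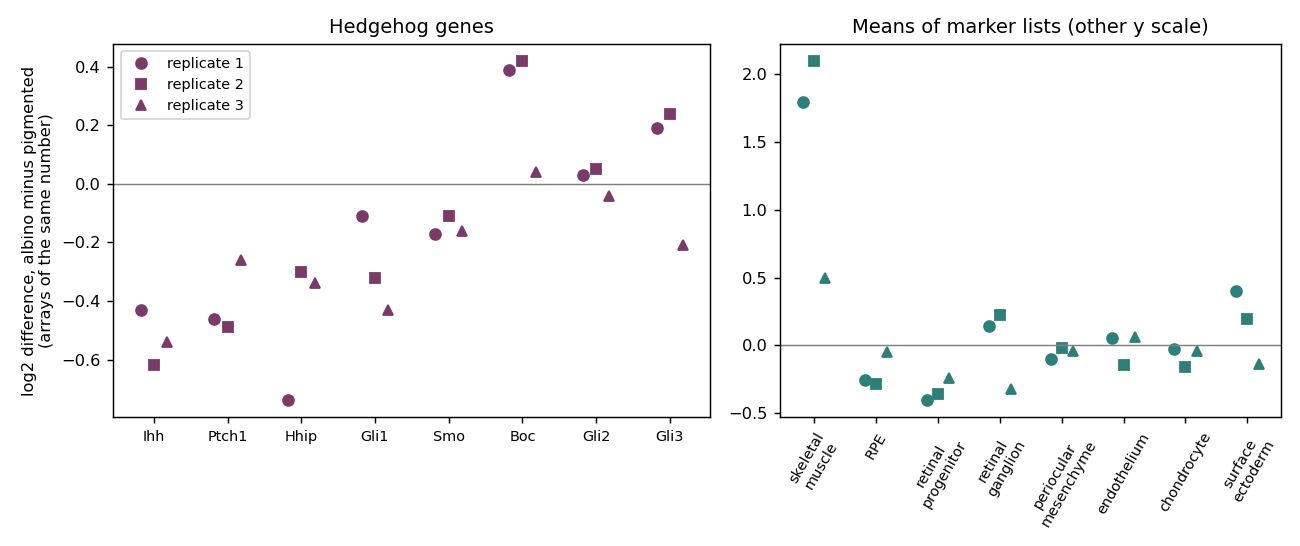
Log2 difference, albino minus pigmented, between arrays of the same replicate number, for 8 Hedgehog genes (left) and for the means of marker lists (right, on another scale). Ihh, Ptch1, Hhip, Gli1 and Smo lie below 0 in all 3 pairs, and skeletal muscle markers lie between 0.50 and 2.10.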

How the data were processed

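The authors deposited log2 values, made with Affymetrix Expression Console 1.1 and RMA per the submitters' processing notes, from biotin-labelled cRNA of 100 ng total RNA per the labels' protocols. RMA corrects the background, equalises array distributions and summarises probe sets, so a change shared by all transcripts is removed. Median values lay between 5.19 and 5.22 on the 6 arrays, and the number of arrays limits the precision.

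Gene names are those of the platform annotation, and all 9 members' Entrez IDs are in the RefSeq gene table of GRCm38.p6. Of 45101 probe sets, 23591 were tested, after removal of 64 control probe sets and of those averaging under 5 over all arrays. The genotypes were compared by limma (version 3.58.1, R version 4.3.3, functions lmFit and eBayes, two-sided), and p-values were adjusted by Benjamini-Hochberg over the 23591 probe sets. All unadjusted and adjusted p-values come from limma unless a permutation test is named, and SE is that of the limma estimate. The fit was tested on simulated data.

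The labels give both genotypes replicate numbers 1 to 3. Deviations from the genotype means correlated at 0.863, 0.687 and 0.448 between same-numbered arrays. No label says that the numbers pair the arrays, and the values bear such a pairing out for replicate 1 only. Albino replicate 2 correlated slightly higher with pigmented replicate 3 (0.693), and albino replicate 3 higher with pigmented replicate 2 (0.546). Differences between same-numbered arrays in replicates 2 and 3 therefore rest on the numbers alone. The fit without the block is the main one. No 2 arrays were copies, with at most 5.44% of values identical between any 2.

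The members and lists were chosen with earlier results of these data known. Genes outside the members were named by a rule, the 3 of each list with the smallest unadjusted p, with Dhh, Sufu, Cdon and Gas1 always, and the 3 nearest to Ptch1, Gli1 and Hhip. Foxc2 alone was named outside this rule, after its values were seen. Of the 41 pathway genes, 4 had no probe set named for them alone and 4 were below the minimum, and for the 20 target genes these counts were 2 and 3. Alternatives were the replicate block, a block for replicate 1 against the others, median centring, cyclic loess, no filter or a minimum of 6, array weights, other ways to represent a gene, and each array left out. Leaving out both replicate 3 arrays was added after seeing the data.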

Additional observations from a re-analysis of the deposited data

How the results depend on the processing

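Ptch1, Hhip and Gli1 stayed lower in albino pools, and none passed the adjusted threshold, under all 17 alternatives. Leaving out 1 array at a time gave -0.50 to -0.28 for Ptch1, -0.53 to -0.36 for Hhip and -0.36 to -0.24 for Gli1, and the smallest adjusted p over the alternatives was 0.087, 0.11 and 0.107. Smo ranged from -0.22 to -0.03 and Boc from 0.15 to 0.41 without a change of direction. Gli2 turned negative after median centring (-0.060) and cyclic loess (-0.010), with its probe sets averaged (-0.0033), and within a range of -0.068 to 0.087 when 1 array was left out. Gli3 turned negative with array weights (-0.0021). The number of members and of probe sets past the adjusted threshold was 0 in limma under every alternative run. The 1104 probe sets at an unadjusted p under 0.05 became 4243 with the replicate block, 4952 with a block for replicate 1 against the others, 3510 with array weights, 3052 without both replicate 1 arrays and 565 without both replicate 3 arrays. With 1 array left out they ranged from 567 to 1418, the lowest without pigmented replicate 2, and were 610 without albino replicate 2. The replicate block changed no adjusted call. The cause of these shifts was not tested.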
